A study of Mus musculus with 69 samples.

Results

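The proximal tubule segment S1 (PT-S1), the first part of the tubule after the glomerulus, was compared 24 h after surgical removal of the other kidney (unilateral nephrectomy, UNx) with the same segment 24 h after a sham operation. All libraries of the PT-S1 24 h table were used, 17 of the 69 samples of the series. The sham group had 3 animals with 8 libraries in all, and the UNx group 4 animals with 9. Libraries of an animal were averaged, so the animal was the replicate. The mice were wild-type C57BL/6 males, 7 weeks old and on normal chow, and the labels name no other allele or agent. Tubules were dissected by hand, polyA RNA was amplified as cDNA with a low-input kit, and levels are in TPM, a transcript abundance scaled by length and to a constant library total, which keeps no sequencing depth. The depth is therefore unknown, and no counting error was computed. The labels do not say whether libraries of an animal hold separate tubules. The comparison asks what the early proximal tubule of the remaining kidney does on the first day after its partner is lost.

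Cells of the proximal tubule S1 segment take up most of the filtered glucose, phosphate, amino acids and protein, and they burn fatty acids rather than glucose for this work. Fatty acids enter mitochondria through the carnitine shuttle, are shortened by beta-oxidation there and in peroxisomes, and are hydroxylated by CYP4A enzymes in the endoplasmic reticulum. Many of these genes are known targets of PPAR-alpha, a nuclear receptor that fatty acids activate and that binds DNA as a dimer with a retinoid X receptor. After loss of a kidney the remaining proximal tubule is known to enlarge and to reabsorb more.

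Markers of other kidney cells were checked, and 2 sham libraries and UNx animal 3 stood apart. Library 1 of sham animal 1 and library 2 of sham animal 3 had median correlations with the other libraries of 0.824 and 0.904, and the latter the largest share of mitochondrial transcripts, 9.40%. Aqp2 of principal cells was at most 0.232 TPM and Slc12a1 of the thick limb at most 0.709 TPM in any animal. Other members of their lists were not that low. The thick ascending limb sum was 177 to 218 TPM in sham and 204 to 288 TPM in UNx animals, the principal cell sum 77.9 to 109.5 and 80.2 to 125 TPM, and the endothelium sum 85.6 to 194 and 93.2 to 235 TPM. The macrophage and leukocyte sum was 174 to 226 TPM in sham and 93.3 to 177 TPM in UNx animals. The fibroblast and distal convoluted tubule sums were at most 8.29 and 3.07 TPM. No listed marker of any cell type was at 0 in all libraries. UNx animal 3 had an erythrocyte sum of 62.3 TPM, against 1.65 to 10.99 TPM in the other 6 animals, and a neutrophil sum of 14.7 TPM, against at most 0.23 TPM. It also held 17.2 TPM of Havcr1 and 14.3 TPM of Lcn2, known markers of tubular injury, against at most 0.911 and 0.0829 TPM elsewhere. Without UNx animal 3 the change was 2.65 for Fabp1 and 2.40 for Ucp2, and the adjusted p of Fabp1 was 0.0182, with a range from 0.000437 to 0.672 over the 21 alternatives. The part of these cells in the results was not tested.

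Of 11874 genes with a mean of at least 1 TPM, 0 (0%) passed an adjusted p of 0.05 in the limma test. The smallest adjusted p was 0.109, for Fabp1. Leaving out single animals gave 0 to 8 genes, with 1 without sham animal 3, 2 without UNx animal 3 and 8 without UNx animal 4, and limma fits with array weights or with every library as a replicate gave 1426 and 85. At an unadjusted p under 0.05 stood 2109 genes (17.8%), of which 308 (2.59%) were higher and 1801 (15.2%) lower in UNx. That split depended on scaling, with 1126 higher and 647 lower after median-ratio scaling and 792 higher and 753 lower after quantile normalization. Without the 2 sham libraries of low correlation it was 199 higher and 2720 lower, and without sham animal 1 it was 166 and 660. Without UNx animals 1, 2 and 3 in turn, 228, 277 and 196 genes were higher and 1019, 1030 and 2387 lower. The UNx animals lay wholly above the sham animals in 331 genes (2.79%) and wholly below them in 1442 (12.1%). The median change over all genes, in log2(TPM + 1), was -0.19, and 0.011 and -0.011 under these scalings, so values for gene groups are given relative to that median. All changes are UNx minus sham in log2(TPM + 1), a scale on which low genes appear to change less than they do. Below, a level of an animal is the mean of its libraries on that scale, converted back to TPM. No gene is said to have risen or fallen. Counts of list members at an unadjusted p under 0.05 carry their share of the list, to be read against 2.59% of all genes higher and 15.2% lower. The lists were chosen with earlier results of these data known, so these shares are descriptions and no independent evidence.

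Genes of fatty acid use were among those with the largest positive changes. By a rule of unadjusted p under 0.01, no overlap between groups and a mean of at least 10 TPM, 67 higher and 246 lower genes qualified, and the 12 with the largest change in each direction were taken. Those reported of the higher 12 were Cyp4a14, Ucp2, Fabp1, Cyp4a10, Aldh1a7, Angptl4, Mgst1, Aldh1a1, Cyp4a31, Reep6 and Rdh16f2. Their changes ran from 3.21 to 1.62, and the adjusted p of all these but Fabp1 lay between 0.228 and 0.254.

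Fabp1, the liver-type fatty acid binding protein, was at 4.11, 8.82 and 8.63 TPM in sham animals 1, 2 and 3 and at 48, 68.7, 106 and 34 TPM in UNx animals 1, 2, 3 and 4, a change of 2.93 (SE 0.365, limma adjusted p = 0.109). UNx animal 3 was the highest and UNx animal 4 the lowest of its group. Neither the animals nor the libraries overlapped: the highest sham library held 10.8 TPM and the lowest UNx library 32 TPM. Removing the 2 sham libraries that correlated poorly with the rest left the change of Fabp1 at 2.75, and removing the trend of change on transcript length left it at 2.86.

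Fabp1 is also the member of the fatty acid groups whose promoter held the letters that PPAR-alpha dimers are known to bind, a direct repeat spaced by a single base. This motif, 2 copies of AGGNCA with any base between them, was searched on both strands in the RefSeq windows from 250 bases before to 50 bases after each gene start (build GRCm38.p6). It occurred in 125 of 32851 windows (0.381%). Of the 12 higher genes, 6 had a window, and of these only Fabp1 held the motif, while 0 of the 12 lower genes did. With a motif this rare, a single match does not separate these groups. Of the 102 named genes with a window, 1 held it. Mitochondrial beta-oxidation had it in 0 of 21 genes with a window, peroxisomes in 0 of 22, the CYP4A enzymes in 0 of 6 and the PPAR-alpha list in 0 of 26. Clock, of the circadian list, also held it. The stretch is on the plus strand at chr6:71199772-71199864, upstream of the start, with the motif, here read as its reverse complement from 67 to 55 bases before the start, in capitals. A match is a description of the letters and does not show that a factor binds.
Fabp1: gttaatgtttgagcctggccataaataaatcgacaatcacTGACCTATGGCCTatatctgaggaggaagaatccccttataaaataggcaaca

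The CYP4A enzymes, which hydroxylate the end of the fatty acid chain, formed the pathway list with the highest median, 1.16 above that of all genes, with 8 of 8 tested members above it. Of the 8, 4 (50%) were higher at an unadjusted p under 0.05 and 0 lower. Cyp4a10 was at 126, 126 and 329.6 TPM in the sham and 1518, 1103, 1655 and 479.6 TPM in the UNx animals, a change of 2.62 (SE 0.448). Cyp4a14 was at 35.1, 16.2 and 111 TPM in sham and 444, 449, 809 and 129 TPM in UNx animals, a change of 3.21 (SE 0.657). Cyp4a31 was at 213, 217 and 204 TPM in sham and 974, 663, 1003 and 362 TPM in UNx animals, a change of 1.71 (SE 0.311). UNx animals 1, 2 and 3 were the highest animals in all of these, and in Cyp4a10 and Cyp4a14 UNx animal 4 stood closest to sham animal 3. The Cyp4a genes are near copies of each other, and how the counting step shared reads among them could shift levels from member to member.

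Mitochondrial beta-oxidation and the carnitine shuttle showed smaller differences, with a list median of 0.45 above all genes and 18 of 24 members above the median of all. At an unadjusted p under 0.05, 6 members (25%) were higher and 2 (8.33%) lower. Slc25a20, the carrier that brings acylcarnitines into mitochondria, was at 60.2, 65.9 and 63.4 TPM in the sham and 109, 101, 159 and 104 TPM in the UNx animals (change 0.87, SE 0.183). Eci1, an enoyl-CoA isomerase for unsaturated chains, was at 210.4, 269 and 312 TPM in sham and 510.5, 466, 655 and 407 TPM in UNx animals (change 0.94, SE 0.202), and Acadl, a long-chain acyl-CoA dehydrogenase, at 187, 191 and 216 TPM in sham and 315, 300.2, 351 and 256 TPM in UNx animals. In these 3 genes no UNx animal overlapped a sham animal. Cpt1a, the gate of the shuttle, did not share the pattern: its change was -0.31 (SE 0.297) and the groups overlapped. Peroxisomal oxidation and biogenesis had 4 members (13.3%) higher and 1 lower of 30. Its members Ehhadh and Acaa1b, enzymes of the later steps, had changes of 1.02 (SE 0.362) and 1.12 (SE 0.41), with UNx animal 4 inside the sham range of both.

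Among regulators and targets of the PPAR-alpha response, 7 of 23 tested genes (30.4%) were higher and 5 (21.7%) lower at an unadjusted p under 0.05, and 14 were above the median of all genes. Ucp2, a carrier of the inner mitochondrial membrane, was at 9.18, 7.12 and 20.2 TPM in the sham and 84.9, 104, 517 and 27.5 TPM in the UNx animals, a change of 3.15 (SE 0.762) with a wide spread among the UNx animals. Angptl4, a secreted inhibitor of lipoprotein lipase, was at 21.6, 6.32 and 22.6 TPM in sham and 141, 29.2, 112 and 33.4 TPM in UNx animals (change 2.02, SE 0.587). Vnn1, a pantetheinase, was at 103, 71.1 and 63.9 TPM in sham and 321, 226, 399 and 112 TPM in UNx animals (change 1.61, SE 0.372). The thioesterase Acot1 was at 25.2, 12.2 and 41.8 TPM in sham and 72.4, 48.7, 125 and 61.6 TPM in UNx animals (change 1.58, SE 0.394). Other thioesterases went the other way, with changes of -0.64 for Acot6 and -0.56 for Acot11. Of the 12 tested, 3 (25%) were higher and 2 (16.7%) lower at an unadjusted p under 0.05. Mgll, the monoacylglycerol lipase, was at 14.5, 12.7 and 22.4 TPM in sham and 33.6, 35, 114 and 27.6 TPM in UNx animals. The receptors themselves were lower or overlapped: Ppara was at 92.8, 112 and 87.5 TPM in sham and 80.7, 63.2, 88.8 and 74.4 TPM in UNx animals. Rxra, the dimer partner, was at 58.5, 40.9 and 27 TPM in the sham and 9.66, 8.44, 25.5 and 19.5 TPM in the UNx animals, wholly below (change -1.43, SE 0.377, adjusted p = 0.254). Oxct1, which uses ketone bodies rather than making them, was also wholly below, at 1009, 1181 and 862 TPM in sham and 571, 741, 359.9 and 805 TPM in UNx animals.

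**Figure D1:**
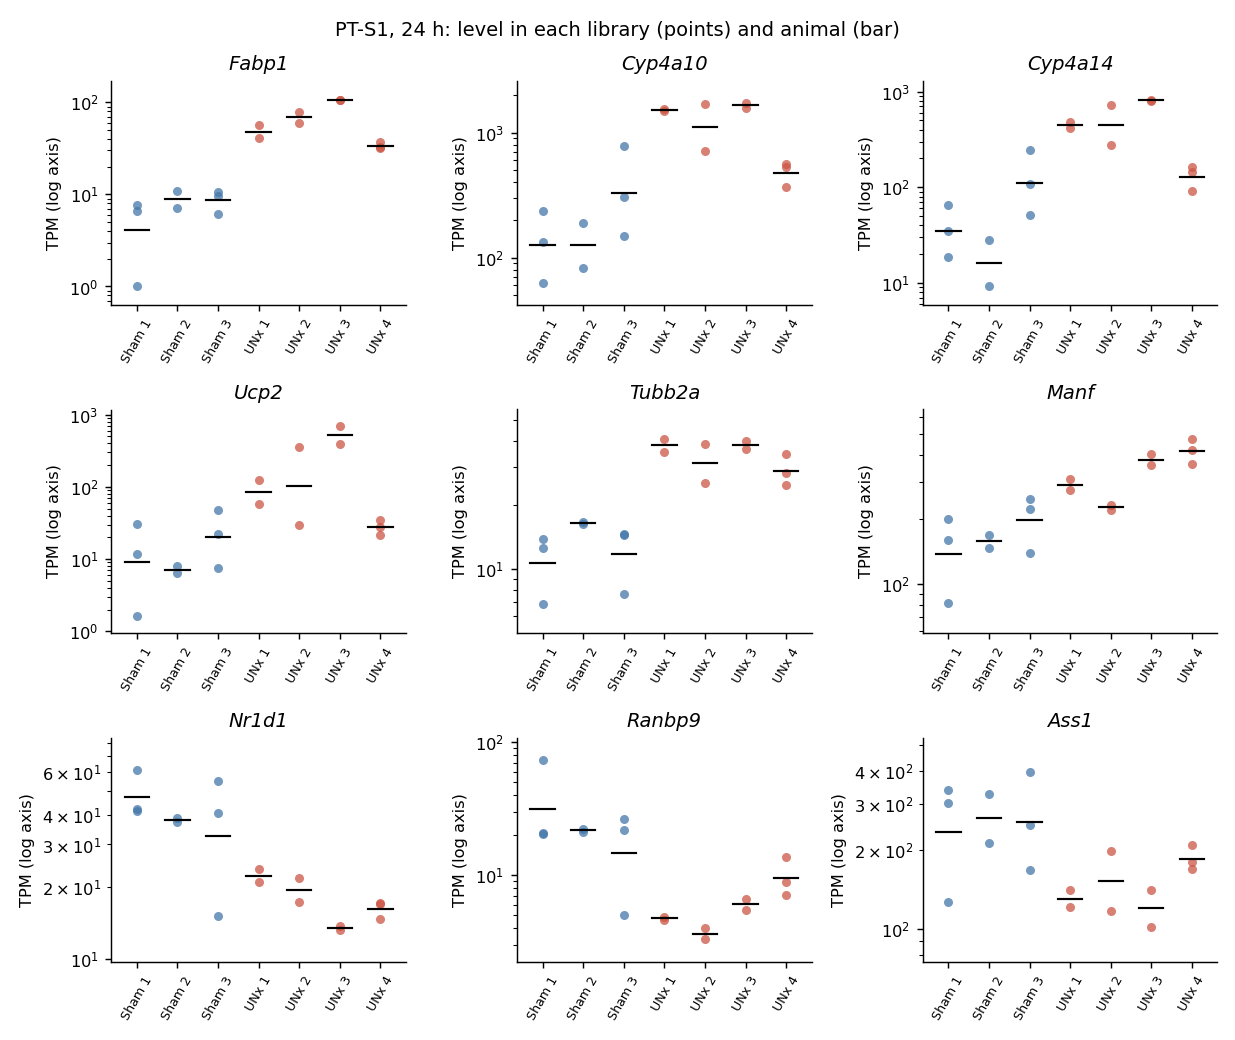
Level in TPM (log axis) of 9 genes in each library (points) and animal (black bars, libraries averaged on the log2 scale), with sham animals in blue and UNx animals in red. The animals do not overlap in any of the 9 genes, and for Fabp1 no library does. The genes were picked for small p, and Fabp1, Cyp4a10, Cyp4a14, Ucp2 and Ranbp9 also for lack of overlap between animals. The lack of overlap is thus no independent result. In Cyp4a10, Cyp4a14 and Ucp2 UNx animal 4 sits lowest among the UNx animals.

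Markers of the proximal tubule were high in every library, while those of its segments varied. Slc5a2, the glucose carrier of S1, was at 2964, 3234 and 2216 TPM in the sham and 2257, 2228, 789 and 2512 TPM in the UNx animals, and the sodium-phosphate carrier Slc34a1 at 9677, 9543 and 7252 TPM in sham and 7631, 7363, 5208 and 7619 TPM in UNx animals, with UNx animal 3 the lowest in both. The summed level of 13 markers of S1 and S2 ranged from 15548 to 20684 TPM in the sham and from 10243 to 15942 TPM in the UNx animals, and that of 10 markers of S3, the last proximal segment, from 2657 to 4272 TPM and from 2751 to 7278 TPM. Over the 9 tested S3 markers the median change was 0.84 above all genes, with 9 of 9 above the median. At an unadjusted p under 0.05, 1 of the 9 (11.1%) was higher and 0 lower, and in 0 did all UNx animals lie above all sham animals. Of the 13 markers of S1 and S2, 0 were higher and 1 (7.69%) lower. After quantile normalization 2 S3 markers (22.2%) were higher and 5 of S1 and S2 (38.5%) lower, against 6.67% and 6.34% of all genes. Slc5a10, a sodium-sugar carrier, was at 15.3, 9.89 and 40.4 TPM in the sham and 276, 79.98, 748 and 22.4 TPM in the UNx animals, so that UNx animal 4 lay within the sham range. Slc6a18, an amino acid carrier of the late segments, was at 35.7, 15.1 and 36.5 TPM in sham and 101, 69.6, 368 and 22.7 TPM in UNx animals.

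The lipid genes and these late-segment genes were high in some of the same libraries. In the 3 libraries of UNx animal 4, Slc5a1, the glucose carrier of S3, was at 0.14, 0 and 0.8 TPM, and in library 1 of UNx animal 2 it was at 0.03 TPM, within the sham range of 0 to 7.56 TPM. These 4 libraries are singled out by Slc5a1 alone, and 3 of them come from UNx animal 4. In them Fabp1 was at 32, 32.8, 37.3 and 79 TPM, above every sham library. Cyp4a10 was there at 368, 565, 531 and 716 TPM, against 62.8 to 784 TPM in sham. The highest sham library of Cyp4a10 was library 1 of sham animal 3, in which the S3 transporter Slc7a13 reached 109.8 TPM. Ucp2 was at 27.4, 21.6, 34.9 and 29.5 TPM in the 4 libraries and at up to 47.3 TPM in sham, so for it the libraries overlapped. The part of segment position in the changes of Fabp1, Cyp4a10, Ucp2 or the group as a whole was not tested. In these bulk samples a shift in which cells were taken and a change of RNA per cell cannot be told apart.

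**Figure D2:**
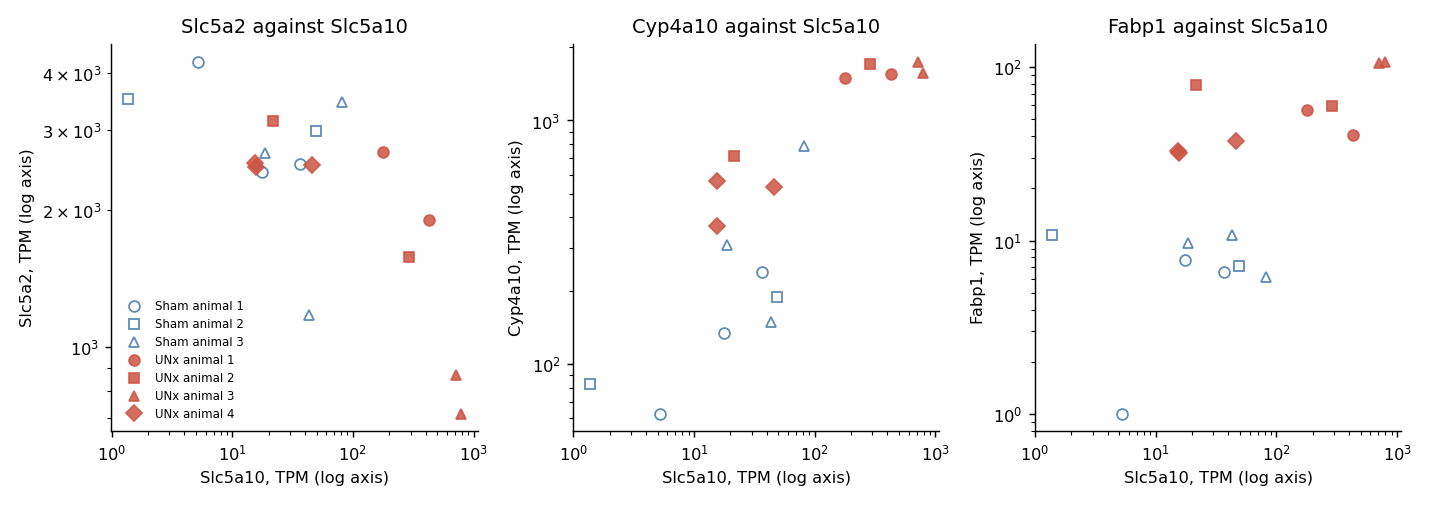
Each point is a library, with Slc5a10 in TPM on the x axis and Slc5a2, Cyp4a10 or Fabp1 in TPM on the y axis (all log axes; open blue symbols sham, filled red symbols UNx, shapes mark animals). The UNx libraries with the most Slc5a10 hold the least Slc5a2, while Fabp1 in every UNx library lies above every sham library.

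The other reported genes of the higher group are known for retinoid, aldehyde, membrane and glutathione functions. Aldh1a1 and Aldh1a7, close copies that oxidise retinal and other aldehydes, were at 1.31, 0.572 and 2.35 TPM in sham and 6.16, 6.19, 25.3 and 3.47 TPM in UNx animals and at 3.3, 2.02 and 4.53 TPM in sham and 17.4, 14, 59.8 and 7.38 TPM in UNx animals. Reads that such copies share were divided in the counting step, so their separate levels are uncertain. Rdh16f2, of the retinol dehydrogenase family, was at 25.5, 63.1 and 59.9 TPM in sham and 183, 116, 286 and 69.1 TPM in UNx animals. Reep6, a protein that shapes endoplasmic reticulum membrane, was at 20.02, 25 and 20.9 TPM in sham and 61.4, 61.1, 214 and 31.8 TPM in UNx animals. Mgst1, a membrane-bound glutathione transferase, was at 67.9, 108 and 121 TPM in sham and 335, 278, 1393 and 167 TPM in UNx animals. In each of these UNx animal 3 was the highest animal and UNx animal 4 the closest to sham. The list of NRF2 targets and glutathione enzymes, which answer oxidants and electrophiles, had 7 members (17.5%) higher and 0 lower of 40 at an unadjusted p under 0.05, and a relative median of 0.48. Its members included the transferase Gstp1 at 163, 224 and 246 TPM in sham and 434, 306, 719 and 288 TPM in UNx animals, and Nqo1, a quinone reductase, at 28.3, 34.2 and 22.3 TPM in sham and 70.9, 60.6, 129.9 and 32 TPM in UNx animals. The factor itself, Nfe2l2, had a change of -0.17 (SE 0.166).

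Chaperones of the endoplasmic reticulum, which fold secreted and membrane proteins, had 7 of 18 members (38.9%) higher at an unadjusted p under 0.05 and 0 lower, with 18 of 18 above the median of all genes and a relative median of 0.35. Without the 2 sham libraries of low correlation, 2 of 18 were higher and 0 lower, against 1.68% and 23% of all genes. Removing the length trend left the relative median at 0.42. Manf, a small secreted protein made under endoplasmic reticulum stress, was at 138, 158 and 198 TPM in the sham and 290.2, 228, 379.7 and 417 TPM in the UNx animals, a change of 0.97 (SE 0.225, adjusted p = 0.228). Unlike the lipid genes, Manf was highest in UNx animal 4. Creld2 was at 49.7, 51.6 and 86.2 TPM in sham and 85.7, 119, 181 and 137 TPM in UNx animals (change 1.05, SE 0.269), with UNx animal 1 just under sham animal 3. Hspa5, the chaperone BiP, was at 625, 418 and 581 TPM in sham and 611, 754, 937 and 909 TPM in UNx animals, and Pdia6, a disulfide isomerase, at 230.4, 236 and 293 TPM in sham and 319, 307, 345 and 355 TPM in UNx animals.

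Some promoters of this group share the letters of a known element. The list was drawn from general knowledge of such genes, with earlier results of these data known. The share with the element is thus no independent evidence about these data. The endoplasmic reticulum stress response element, CCAAT and CCACG with any 9 bases between them, was searched on both strands in the same RefSeq windows, of which 39 of 32851 (0.119%) held it. It was found for 7 of the 16 chaperone genes with a window, namely Hspa5, Hsp90b1, Calr, Canx, Pdia6, Dnajc3 and Creld2. Of those 7, Hspa5, Pdia6 and Creld2 were among the members with an unadjusted p under 0.05, while Hsp90b1, Calr, Canx and Dnajc3 had changes of 0.086, 0.068, -0.17 and 0.062. The stretches below are upstream of the start on the plus strand of GRCm38.p6 and show the element in capitals, at chr2:34771985-34772083 for Hspa5, chr12:17266451-17266549 for Pdia6 and chr15:88819480-88819578 for Creld2, where it reads as the reverse complement.
Hspa5: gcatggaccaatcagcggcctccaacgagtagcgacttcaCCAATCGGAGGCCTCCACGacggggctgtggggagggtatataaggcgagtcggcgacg
Pdia6: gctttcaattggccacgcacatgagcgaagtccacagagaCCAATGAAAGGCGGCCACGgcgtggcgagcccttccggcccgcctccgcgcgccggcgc
Creld2: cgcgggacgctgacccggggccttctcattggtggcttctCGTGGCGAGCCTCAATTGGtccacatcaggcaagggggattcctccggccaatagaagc

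Single genes of the cell shape and injury lists also did not overlap between the groups. Tubb2a, a beta-tubulin, had an adjusted p of 0.13, the next smallest after Fabp1 and shared with Gm27640, at 10.7, 16.5 and 11.8 TPM in the sham and 38, 31.3, 38.2 and 29 TPM in the UNx animals (change 1.34, SE 0.193), and its UNx animals lay close together. Tuba1c and Tubb5 were also wholly above, at changes of 0.51 (SE 0.171) and 0.48 (SE 0.169). Tubulin genes are near copies too, with the same uncertainty. Tnfrsf12a, the receptor of the cytokine TWEAK, was at 29.7, 39.4 and 36.5 TPM in sham and 77.7, 58.7, 119 and 64.7 TPM in UNx animals (change 1.12, SE 0.238). Of the 29 tested genes of tubular injury and dedifferentiation, 2 (6.9%) were higher and 2 (6.9%) lower at an unadjusted p under 0.05, with a relative median of 0.59. After median-ratio scaling 10 (34.5%) were higher, against 9.48% of all genes, and 0 lower. After quantile normalization 10 (34.5%) were higher and 1 (3.45%) lower, against 6.67% and 6.34% of all genes. The injury markers Havcr1 and Lcn2 stood high in UNx animal 3 only, and the part of that animal in the list median was not tested. Proteasome subunits had 5 members (15.6%) higher and 0 lower of 32, with Psmb5 at 220.2, 294 and 274 TPM in sham and 355, 352, 471 and 337 TPM in UNx animals. After median-ratio scaling 18 subunits (56.2%) were higher and 0 lower, against 9.48% and 5.45% of all genes. Without the sham libraries of low correlation 1 was higher and 1 lower, against 1.68% and 23% of all genes. The glycolytic enzymes Eno1, at 600.02, 709 and 684 TPM in sham and 1258, 996, 1357 and 991 TPM in UNx animals, and Ldha, at 1244, 1557 and 1210.3 TPM in sham and 2180.3, 1775, 1952 and 1915 TPM in UNx animals, were wholly above as well. The glycolysis list held 2 higher (13.3%) and 1 lower (6.67%) member of 15.

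The counts of higher members moved with the scaling in most of these lists, as did the share of all genes. After median-ratio scaling, with 9.48% of all genes higher, 10 of 24 genes of mitochondrial beta-oxidation (41.7%), 10 of 30 of peroxisomes, 18 of 40 of the NRF2 list, 9 of 18 chaperones and 4 of 8 CYP4A enzymes were higher. Without the sham libraries of low correlation, with 1.68% of all genes higher, these counts were 6, 4, 6, 2 and 3.

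**Figure D3:**
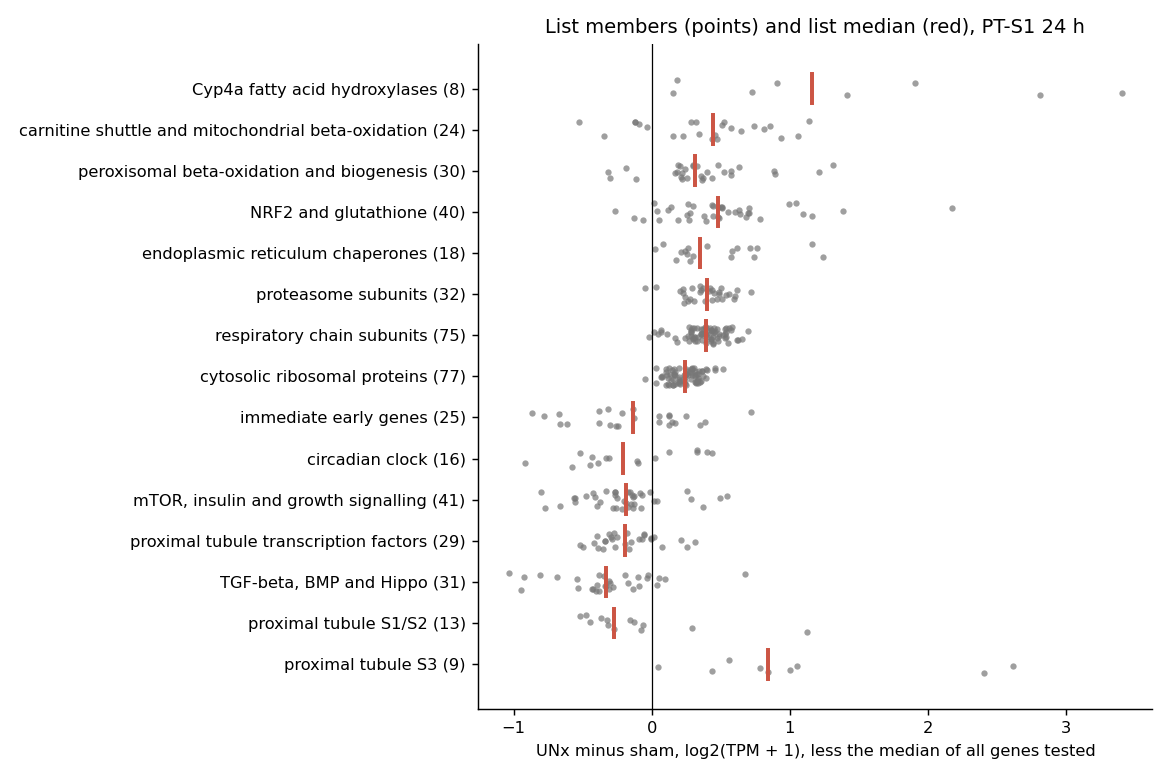
Change of each tested list member (grey points, UNx minus sham in log2(TPM + 1), less the median of all genes) and the median of the list (red line), with the number of members in parentheses. Lipid, NRF2, chaperone, proteasome and respiratory chain lists have medians above 0 as deposited and the signalling, clock and transcription factor lists below 0, while S1/S2 markers lie below and S3 markers above.

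Lists of genes with short transcripts differed together by small amounts. Of 75 respiratory chain subunits, 74 were above the median of all genes, with a relative median of 0.39, but 4 (5.33%) were higher and 0 lower at an unadjusted p under 0.05. After median-ratio scaling 15 (20%) were higher, and after quantile normalization 4 (5.33%), against 9.48% and 6.67% of all genes. Of 77 cytosolic ribosomal proteins, 76 were above it, with a relative median of 0.24 and 0 higher or lower. Transcript length ran with the change across genes: the median change went from 0.053 in the quintile of genes with the shortest transcripts to -0.38 in the quintile with the longest. Spearman's rho between change and length was -0.47 across 11859 genes, which are not independent replicates, and -0.37 without 2 sham libraries of low correlation. Genes higher at an unadjusted p under 0.05 had a median longest transcript of 1797 bases and lower genes one of 4355 bases, against 3085 for all. With the length trend removed in each library, the relative median was 0.18 for the respiratory chain and 0.018 for ribosomal proteins, and 820 genes were higher and 624 lower at an unadjusted p under 0.05. The libraries differed in this respect within an animal too, and library 1 of sham animal 1 stood furthest out, with a rho of 0.63 and a median correlation with the other libraries of 0.824.

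**Figure D4:**
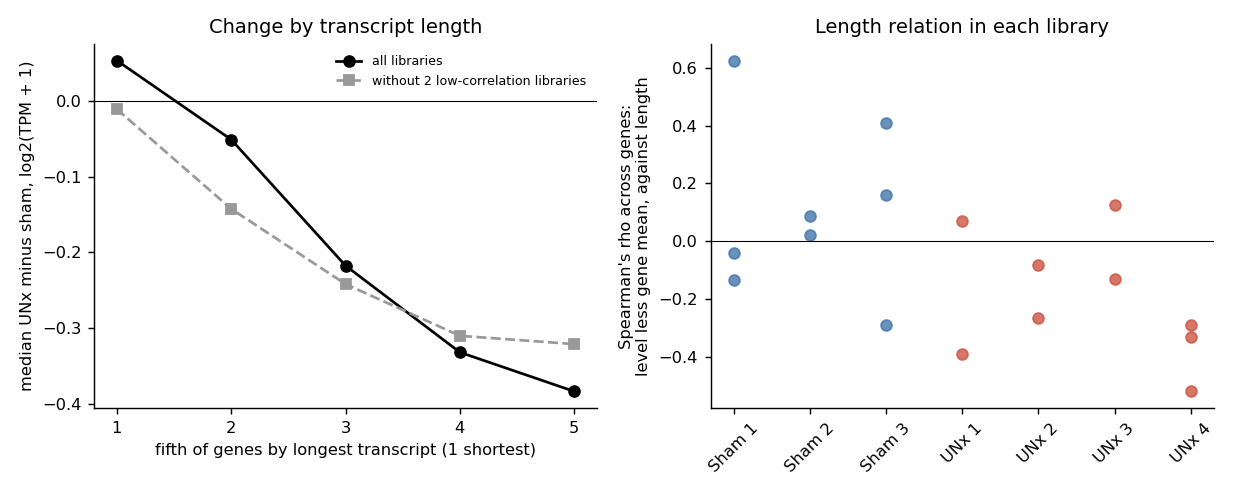
Left, median change (log2(TPM + 1)) by quintile of genes ordered by longest transcript, with all libraries (black) and without 2 sham libraries of low correlation (grey). Right, Spearman's rho across genes between each library's level, less the mean of the gene, and transcript length, for sham (blue) and UNx (red) libraries; library 1 of sham animal 1 is highest at 0.63, and all 3 libraries of UNx animal 4 are below 0.

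The genes with the lowest changes had varied known functions. The lower 12 were Znrf2, Tada2b, Ranbp9, Cnnm3, Rnf212b, Rxra, Irf2bp2, Brd1, Egln1, Depp1, Lrp3 and Cul3, with changes from -1.88 to -1.30. Znrf2, a ubiquitin ligase, was at 49.8, 36.7 and 32.3 TPM in the sham and 4.96, 4.74, 14.5 and 24.9 TPM in the UNx animals (change -1.88, SE 0.474). Ranbp9, a scaffold of a ubiquitin ligase complex, was at 31.6, 21.7 and 14.6 TPM in sham and 4.75, 3.65, 6.07 and 9.55 TPM in UNx animals (change -1.76, SE 0.314). Cul3, the cullin with which KEAP1 marks NRF2 for degradation, was at 108, 70.3 and 63.9 TPM in sham and 23.4, 16.4, 40.2 and 62 TPM in UNx animals, with UNx animal 4 just under the lowest sham animal. Tada2b, an adaptor of histone acetyltransferase complexes, was at 17.9, 11.9 and 10.5 TPM in sham and 1.55, 1.12, 5.25 and 5.76 TPM in UNx animals, Brd1, a chromatin reader, at 12.5, 8.64 and 9.9 TPM in sham and 1.92, 2.2, 5.17 and 4.96 TPM in UNx animals, and the corepressor Irf2bp2 at 26.3, 15 and 16.1 TPM in sham and 4.09, 6.11, 7.39 and 8.15 TPM in UNx animals. Egln1, the oxygen sensor that marks HIF for degradation, was at 31.4, 19 and 20.8 TPM in sham and 4.99, 5.09, 11.7 and 15.3 TPM in UNx animals. In each of these except Brd1, UNx animal 4 was the highest UNx animal, nearest to sham. The other members were Cnnm3, of a family of magnesium transport regulators, at 23, 14.1 and 11.7 TPM in sham and 3.48, 1.84, 5.5 and 6.08 TPM in UNx animals, and Lrp3, of the LDL receptor family, at 21.4, 19.8 and 14.9 TPM in sham and 7.23, 2.61, 11.2 and 9.55 TPM in UNx animals. Depp1 was at 20.2, 10.2 and 12.8 TPM in sham and 4.17, 5.96, 3.11 and 7.71 TPM in UNx animals, and Rnf212b at 10.6, 16.2 and 6.08 TPM in sham and 1.7, 4.13, 0.917 and 5.55 TPM in UNx animals. In all of the 12 but Rnf212b, sham animal 1 was the highest sham animal. Its library 1 had the lowest median correlation with the other libraries, 0.824.

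Proximal tubule transcription factors had 11 members (37.9%) lower and 0 higher of 29 at an unadjusted p under 0.05, and a relative median of -0.20. Tfeb, the regulator of lysosome genes, was at 23.7, 24 and 22.5 TPM in sham and 14.2, 14.1, 14.3 and 18.7 TPM in UNx animals, and Cebpa at 3.44, 4.12 and 3.64 TPM in sham and 2.48, 2.34, 1.71 and 2.17 TPM in UNx animals. The list of TGF-beta, BMP and Hippo signalling had the lowest relative median of the pathway lists, -0.33, with 11 of 31 (35.5%) lower and 0 higher. Smad7, which inhibits TGF-beta signalling, was at 4.01, 3.67 and 3.22 TPM in sham and 1.1, 1.56, 1.46 and 1.16 TPM in UNx animals, and the co-repressor Ski at 8.1, 5.12 and 5.58 TPM in sham and 2.38, 2.57, 4.05 and 2.73 TPM in UNx animals. Yap1, the effector of the Hippo pathway, was at 7.3, 5.61 and 5.59 TPM in sham and 2.97, 3.81, 4.33 and 3.52 TPM in UNx animals. Of the 41 genes of mTOR, insulin and growth signalling, a pathway tied to kidney growth, 10 (24.4%) were lower and 0 higher. They included Rragd, a GTPase that carries amino acid signals to mTORC1, at 32.9, 27.9 and 20.1 TPM in sham and 12.7, 12.9, 10.2 and 17.3 TPM in UNx animals, Pik3ca, the catalytic subunit of PI3-kinase, at 33.8, 14.6 and 18.9 TPM in sham and 13.5, 7.33, 10.7 and 9.73 TPM in UNx animals, and Tsc2, an inhibitor of mTORC1, at 39.4, 27.3 and 30.2 TPM in sham and 15.7, 20.4, 25.3 and 14.8 TPM in UNx animals. With the length trend removed, the relative medians were -0.12, -0.23 and -0.059 for the 3 lists, with 3, 3 and 5 members lower, against 5.26% of all genes. After median-ratio scaling, with 5.45% of all genes lower, 1 of 29 transcription factors (3.45%) was lower, 5 of 31 genes of TGF-beta, BMP and Hippo signalling (16.1%) and 5 of 41 of mTOR signalling (12.2%). For the transcription factors the share was thus above that of all genes as deposited and below it after this scaling.

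Circadian and immediate early genes were lower in part. Nr1d1, the clock repressor REV-ERB-alpha, was at 47.5, 37.9 and 32.6 TPM in the sham and 22.2, 19.3, 13.5 and 16.2 TPM in the UNx animals, a change of -1.11 (SE 0.207, adjusted p = 0.228). Dbp and Tef, output factors of the clock, were at 135, 151 and 129 TPM in sham and 89.7, 68.5, 76.9 and 89.8 TPM in UNx animals and at 150.2, 91.2 and 93.2 TPM in sham and 62.8, 66.5, 85.2 and 52.4 TPM in UNx animals, and both were wholly below sham. Genes of the opposite phase overlapped between groups, with changes of 0.21 (SE 0.289) for Arntl and 0.24 (SE 0.339) for Nfil3. In the list, 6 of 16 (37.5%) were lower and 0 higher at an unadjusted p under 0.05. After median-ratio scaling 4 (25%) were lower and 0 higher, against 5.45% and 9.48% of all genes. After quantile normalization 5 (31.2%) were lower and 1 (6.25%) higher, against 6.34% and 6.67% of all genes. The labels used here give no time of day, and its part was not tested. Of 25 immediate early genes, which respond fast to signals and to handling of tissue, 7 (28%) were lower and 0 higher. After median-ratio scaling 4 (16%) were lower and 0 higher, against 5.45% of all genes lower. After quantile normalization 2 (8%) were lower and 0 higher, a share near the 6.34% of all genes lower. Jun was at 31.7, 45.4 and 37.6 TPM in sham and 14.1, 26.8, 13.6 and 24 TPM in UNx animals, Junb at 11, 12 and 14.3 TPM in sham and 7.73, 4.72, 4.91 and 10.5 TPM in UNx animals and Zfp36l1 at 9.63, 9.33 and 11.6 TPM in sham and 5.77, 6.34, 7.43 and 6.53 TPM in UNx animals.

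Lists of transport and metabolism in the proximal tubule had members on both sides in the values as deposited. Of 25 genes of gluconeogenesis and ammonia production, 2 (8%) were higher and 3 (12%) lower at an unadjusted p under 0.05. Of 30 basolateral and organic ion carriers 3 (10%) were higher and 3 lower. After median-ratio scaling 5 (20%) and 5 (16.7%) were higher and 1 (4%) and 1 (3.33%) lower, against 9.48% of all genes higher and 5.45% lower. Ass1 and Asl, which make arginine from citrulline in the proximal tubule, were wholly below sham, at 235, 264 and 255 TPM in sham and 130.4, 153, 119.9 and 186 TPM in UNx animals (change -0.79, SE 0.176) and at 397, 552 and 368 TPM in sham and 215, 234, 191 and 361 TPM in UNx animals. Glud1, which releases ammonium from glutamate, was at 277, 236 and 182 TPM in sham and 179, 152, 137 and 143 TPM in UNx animals. Kl, which encodes the FGF23 co-receptor Klotho, was at 271, 159 and 124 TPM in sham and 111, 113, 106 and 72.6 TPM in UNx animals, with UNx animal 4 the lowest. Of 31 apical carriers, 3 (9.68%) were higher and 1 lower, and the higher ones, Slc5a10, Slc6a18 and Slc6a13, overlapped with sham in UNx animal 4. After median-ratio scaling 9 of the 31 (29%) were higher and 0 lower. After quantile normalization 6 (19.4%) were higher and 4 (12.9%) lower, against 6.67% and 6.34% of all genes. Slc6a8, a creatine carrier, was wholly below, at 66.1, 46.7 and 58.5 TPM in sham and 39.4, 35.4, 43.8 and 40.1 TPM in UNx animals. On the urate and phosphate side, Slc17a1 was wholly above, at 632, 686 and 638 TPM in sham and 1326, 937, 1013 and 777 TPM in UNx animals. Of 29 genes of protein uptake and the brush border, 5 (17.2%) were lower and 0 higher, a share near that of all genes, and after median-ratio scaling 1 was higher and 1 lower. The member with the smallest p was Myo7b, a brush border myosin, at 27, 22.1 and 14.9 TPM in sham and 10.2, 11.3, 12.3 and 7.51 TPM in UNx animals. Lrp2, the endocytic receptor megalin, had a change of -0.25 (SE 0.29), and its sign turned with array weights and with the length trend removed.

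No tested gene of the replication and mitosis lists was higher at an unadjusted p under 0.05 in the values as deposited. Of 33 tested genes of DNA replication and the G1/S step, 0 were higher and 1 (3.03%) lower. Of 39 mitosis genes only 5 reached the mean of 1 TPM, with 0 higher or lower. With 2.59% of all genes higher, counts of 0 in lists this small are near the share of all genes. The relative medians were 0.20 and 0.38, with 30 of 33 and 4 of 5 members above the median of all genes. Of the 33, 1 (3.03%) was higher after median-ratio scaling and 3 (9.09%) after quantile normalization, against 9.48% and 6.67% of all genes. Tk1, a thymidine kinase of S phase, was at 16.9, 22.5 and 18.6 TPM in the sham and 14.6, 12.7, 14.9 and 13.3 TPM in the UNx animals. Cdk1 was at 0.645, 1.83 and 0.515 TPM in sham and 0.822, 1.74, 1.88 and 1.58 TPM in UNx animals, and the division marker Mki67 was at most 0.127 TPM in any animal. A cyclin of G1, Ccnd1, overlapped between groups, at 61.4, 52 and 28.3 TPM in sham and 22.5, 24.9, 37.4 and 40.2 TPM in UNx animals.

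The effects at 24 h were set against those of PT-S1 at 72 h, with 24 libraries from 10 animals, as a difference of effects, each taken within its own table. Of 11455 genes, 0 (0%) passed by limma, with a smallest adjusted p of 0.998, and 381 (3.33%) had an unadjusted p under 0.05. Ucp2 had an effect of 3.15 at 24 h and -0.28 at 72 h, and Fabp1 of 2.93 and 0.97. Cyp4a14 had effects of 3.21 and 1.91 and Cyp4a10 of 2.62 and 1.23. Apart from Depp1, the 12 lower genes had effects at 72 h between -0.46, for Rxra, and 0.048, for Ranbp9, all nearer to 0 than at 24 h. These genes and the lipid genes given here were chosen for large effects at 24 h. Smaller effects at 72 h are expected from that choice alone. Depp1, an autophagy regulator downstream of FOXO factors, had -1.31 at 24 h and -1.85 at 72 h. Dbp had effects of -0.77 and 0.49. Without the libraries of low correlation in both tables, 187 genes passed.

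The second comparison was with the cortical collecting duct (CCD) at 24 h, the segment where sodium and water reabsorption are tuned, with 15 libraries from 7 animals. The labels use the same animal names in both segments without saying whether the mice were the same, and the fit treated the animals as independent. The difference of effects passed by limma in 15 of 10988 genes (0.137%), of which 13 had the lower effect in PT-S1, and 1695 (15.4%) had an unadjusted p under 0.05. Genes of division were among them. Tk1 had an effect of -0.45 in PT-S1 and 1.57 in CCD (difference -2.02, SE 0.334, limma adjusted p = 0.0366). Birc5, which encodes survivin, had effects of -0.21 and 1.93 (difference -2.13, SE 0.368, limma adjusted p = 0.0372). Birc5 was low in PT-S1, with a mean under 5 TPM. Its effect there was -0.43 with a pseudocount of 0.1 and -0.060 with a pseudocount of 5, and the sign turned with the length trend removed. Ranbp9 had effects of -1.76 and 0.47 (adjusted p of the difference 0.0372) and Irf2bp2 of -1.43 and 0.58 (0.0362). Fads2, a fatty acid desaturase, had effects of -0.54 and 0.76 (adjusted p of the difference 0.0366). For the lipid genes the differences were large but did not pass, with effects in CCD of -0.15 for Cyp4a14, -0.57 for Cyp4a10 and 0.062 for Ucp2 (adjusted p of the difference 0.148, 0.136 and 0.168). These lipid genes too were chosen for large effects in PT-S1 at 24 h. Fabp1 did not meet the filter of that comparison and was not tested. The median difference of effects over all genes was -0.13, and 0.098 against PT-S1 at 72 h. Leaving out single animals gave counts from 0 to 163 in place of 15. For PT-S1 the count was 1, 5 and 163 without sham animals 1, 2 and 3, and 0, 0, 24 and 51 without UNx animals 1, 2, 3 and 4. For CCD it was 0, 11, 0 and 1 without sham animals 1, 2, 3 and 4, and 0, 0 and 6 without UNx animals 1, 2 and 3. Without the libraries of low correlation it was 179.

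**Figure D5:**
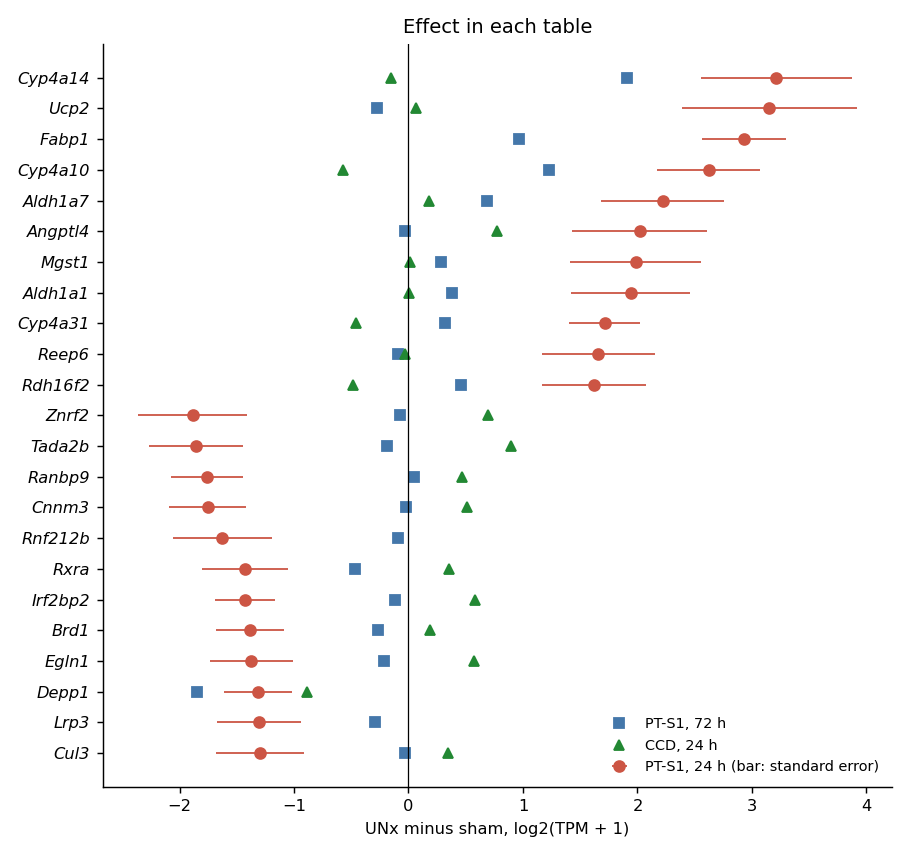
UNx minus sham in log2(TPM + 1) for the reported higher and the 12 lower genes of PT-S1 at 24 h (red, with standard error), PT-S1 at 72 h (blue squares) and CCD at 24 h (green triangles); a missing symbol was not tested. The genes were chosen on the red values, and apart from Depp1 the other symbols lie nearer to 0 than the red ones.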

How the data were processed

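The authors deposited gene-level TPM values, made with RSEM 1.3.3 and STAR on GRCm39 per the submitters' processing notes. The annotation release is not given in the sources used here. TPM keeps no depth, so no count test was run. Of 17 library columns, 13 matched a single sample and 4 an animal only. Libraries were averaged per animal on log2(TPM + 1). Genes with a mean of at least 1 TPM were tested with limma 3.58.1 (R 4.3.3, mean-variance trend, two-sided, Benjamini-Hochberg over all genes, threshold 0.05). Effects in different tables, normalized separately, were compared as differences of within-table effects in a limma fit of 4 groups. P-values measure the spread between animals. Named genes were the 12 largest and 12 lowest changes at unadjusted p under 0.01 with no overlap and at least 10 TPM, predicted genes left out, the 3 members of each pathway list with the smallest p, segment markers and other list members. Some genes that this rule takes are not reported here. Gm27640 was added after its values were seen. Members and lists were chosen with earlier results of these data known. Transcript lengths are the longest transcript per gene in the reference annotation. The limma code was tested on simulated data. Alternatives covered scaling, pseudocount, filter, replicate unit, weights, library removal, replicate block and transcript length.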

Additional observations from a re-analysis of the deposited data

Results flagged for a closer look

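In 10 of the 133 named genes, an animal of the UNx group stood apart from the other 3 by Dixon's 95% critical value, which chance passes in about 1 in 20 groups. UNx animal 3 was the high one at 158.6 TPM for Slc25a20 (others 101.1 to 109.1), 3.793 TPM for Pfkfb2 (2.49 to 2.627), 470.8 TPM for Psmb5 (337 to 355.5), 97.2 TPM for Fgg (10.13 to 13.26) and 13.11 TPM for Tubb5 (10.38 to 10.51). It was the low one at 5208 TPM for Slc34a1 (7363 to 7631) and 788.6 TPM for Slc5a2 (2228 to 2512). UNx animal 4 was high at 18.68 TPM for Tfeb (14.13 to 14.29), and low at 72.59 TPM for Kl (105.6 to 113.5) and 29.06 TPM for Tuba1c (35.71 to 37.06).

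The effect of UNx differed between PT-S1 and CCD at 24 h by limma in 5 named genes, each lower in PT-S1. The differences in log2(TPM + 1) were -2.133 for Birc5, -1.309 for Fads2, -2.018 for Tk1, -2.225 for Ranbp9 and -2.013 for Irf2bp2, with adjusted p between 0.03624 and 0.03718.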

How the results depend on the processing

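The count of genes past an adjusted p of 0.05 by limma was 0. It was 1 after median-ratio scaling, 2 with TPM above 0 in at least 3 animals, 85 with every library as a replicate, 100 with the animal as a random effect, 1426 with array weights and 1 without libraries of low correlation, and leaving out animals gave 0 to 8. The counts at an unadjusted p under 0.05, higher and lower, were 1126 and 647 after median-ratio scaling, 792 and 753 after quantile normalization, 556 and 3603 with array weights and 199 and 2720 without libraries of low correlation. With the length trend removed, an alternative chosen after seeing the data, they were 820 and 624. Leaving out animals gave 166 to 449 higher and 660 to 2540 lower. With the replicate number as a block, 81 genes passed and 476 were higher and 1163 lower at the unadjusted threshold. Same-numbered animals correlated at -0.037, 0.089 and 0.257 and not every animal correlated best with its own number, so the numbers were not taken as pairs. The difference from PT-S1 at 72 h passed in 1 gene with TPM above 0 in at least 3 animals, 376 with array weights and 187 without libraries of low correlation, and in 0 when any animal was left out. The difference from CCD passed in 24 genes after quantile normalization, 25 with a pseudocount of 5, 9 with a mean TPM of at least 5, 43 with TPM above 0 in at least 3 animals, 53 with every library as a replicate or the animal as a random effect, 1468 with array weights and 179 without libraries of low correlation, and 0 to 163 when animals were left out. The cause of these moves was not tested. Over 21 alternatives, 2594 of 2775 values of named genes stayed on their side of the threshold and 181 passed it. In 5 values, of Birc5, Lrp2, mt-Cytb and Spc25, the sign turned, none past the threshold. With 3 sham animals the design limits what can pass, and TPM gives no depth.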
